A study of Rattus norvegicus with 6 samples.

Results

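The genes described here are the enzymes of cholesterol synthesis together with the regulators, transporters and fatty acid enzymes that share their control. They were chosen by gene symbol, 36 of the 22574 symbols in the count table, and all 36 had enough counts to be tested. RNA came from cultured rat aortic vascular smooth muscle cells (RASMCs), primary cells of male Sprague-Dawley rats. In 3 libraries the cells had received citrullinated histone H3 (H3CIT, 0.03 μM) with double-stranded DNA (dsDNA, 300 ng/ml), which are components of extracellular traps, and 3 control libraries came from cells given bovine serum albumin. No allele or further agent is named for either group, and the length of exposure is not given in the sources used here. Wells of cells from the same animal served as replicates in vitro according to the study's reporting summary, so p-values here measure the spread between wells and libraries rather than between animals.

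Cholesterol is built from acetyl-CoA through mevalonate and squalene, and the later enzymes trim lanosterol to cholesterol. When membrane sterol is low, SCAP escorts the SREBP factors out of the endoplasmic reticulum and their target enzymes are transcribed together, and when sterol is high INSIG proteins hold them back. The liver X receptors (LXRs) sense oxysterols and drive the export pumps ABCA1 and ABCG1. Smooth muscle cells that take up more cholesterol than they can export can become foam cells in the atherosclerotic plaque.

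Library totals lay between 17573905 and 18742395 counts, and 12591 genes were tested. Levels are in CPM, the counts of a gene relative to the TMM-scaled size of its library, and are not divided by gene length. Differences are given as log2FC, the log2 ratio of H3CIT+dsDNA over control, with its standard error (SE). Calls rest on the quasi-likelihood test of edgeR with p-values adjusted over every gene tested, and at a threshold of 0.05 there were 277 calls in the whole table. The cells carried smooth muscle markers, with a summed level of 8 contractile genes of 5746 to 6303 CPM after H3CIT+dsDNA and 8484 to 9225 CPM in controls, of which 4 were called lower (Acta2, Tagln, Cnn1 and Smtn) and 1 higher (Myocd). The 8 macrophage markers summed to 72.2 to 74.5 CPM and 73.4 to 76.5 CPM, nearly all of it Cd14 and Csf1r. Ptprc and Itgam were at 0 or 1 count in every library, and 0 of the 5 macrophage markers tested were called. The 6 endothelial markers summed to 8.44 to 8.91 CPM after H3CIT+dsDNA and 9.81 to 10.5 CPM in controls, with 0 of 4 tested called. The 6 adipocyte markers summed to 7.44 to 8.63 CPM and 3.77 to 5.12 CPM. Adipoq alone of the 3 adipocyte markers tested was called (log2FC 1.38, edgeR adjusted p = 0.000791), and Pck1 had no count in any library. The part of these other markers in the results below was not tested. In bulk RNA, fewer cells of a type and less RNA per cell cannot be told apart.

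None of the 36 genes was called by edgeR, where 2.2% of all genes tested were called, 1.94% higher and 0.262% lower. DESeq2 called 1 of them, Dhcr7, and limma-voom called 0. Of the 12591 genes tested, DESeq2 called 311, of which 51 were lower, and limma-voom called 255. Log2 fold changes ran from -0.23 for Nr1h3 to 0.15 for Stard4, with a median of -0.03 beside -0.0013 over all genes tested. The 95% confidence interval of the log2 fold change lay inside ±0.5, a change of between -29.3% and 41.4%, for 34 of the 36 genes. It lay inside ±0.3 for 31 of them. The 2 genes with intervals reaching beyond ±0.5 were the least expressed, Tm7sf2 and Nr1h3. Among all 12591 genes tested, the interval lay inside ±0.5 for 9639 and inside ±0.3 for 7418.

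**Figure D1:**
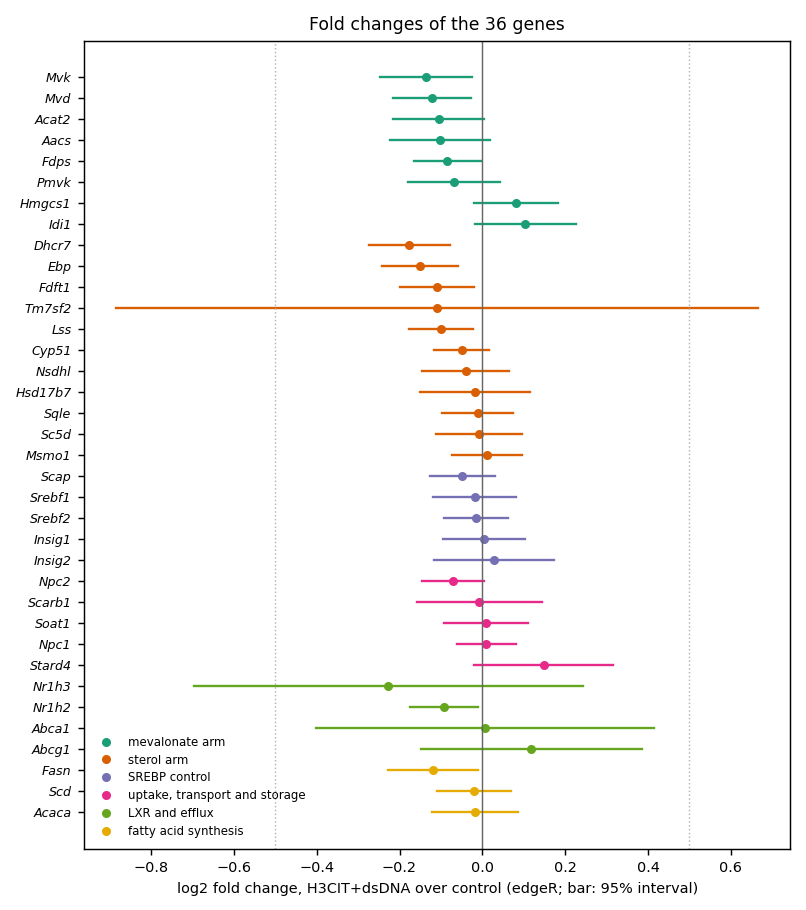
Log2 fold change of each of the 36 genes (H3CIT+dsDNA over control, edgeR) with its 95% confidence interval, colored by role; dotted lines mark ±0.5. All points lie between -0.23 and 0.15, and 27 of the 36 intervals include 0. Over all genes tested, 10839 of 12591 intervals include 0.

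Below the threshold, the small differences leaned downward. At an unadjusted p-value under 0.05, 9 of the 36 genes were lower and 0 were higher, where 13.9% of all genes tested passed, 5.3% lower and 8.64% higher. The 9 were Dhcr7, Ebp, Lss, Mvd, Fdft1, Mvk, Nr1h2, Fasn and Fdps, of which 7 encode enzymes of the mevalonate and sterol arms. The 3 H3CIT+dsDNA libraries all lay below the 3 controls for 10 genes and above them for 2, against 8.43% and 10.7% of all genes tested. These genes are measured more tightly than most. Their median standard error was 0.0468 on the log2 scale and their median level 124 CPM, against 0.0744 and 24.6 CPM over all genes tested. The part of level and precision in these counts was not tested. Scaling moved the direction of the smallest differences: 26 of the 36 log2 fold changes were below 0 with TMM (50.6% of all genes), 31 when scaled by the upper quartile (56.8%) and 18 when only total counts were used (43.2%). The median of the 36 relative to that of all genes was -0.03 on the log2 scale, and ran from -0.05 without control replicate 1 to -0.01 without H3CIT+dsDNA replicate 2.

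**Figure D2:**
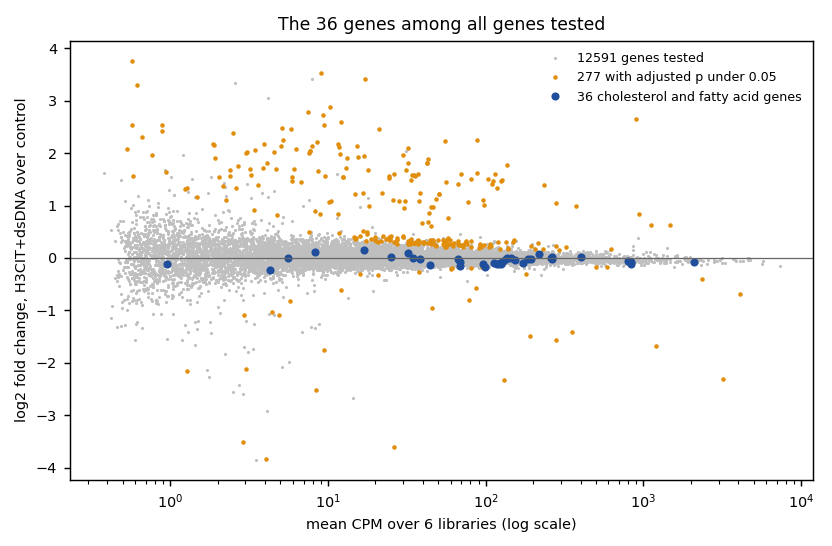
Mean level over the 6 libraries (CPM, log axis) against log2 fold change for 12591 genes; orange points are the 277 genes called by edgeR and blue points the 36 cholesterol and fatty acid genes. The blue points follow the zero line over levels from below 1 CPM to the level of Npc2, and none is orange.

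The mevalonate arm, from acetyl-CoA to farnesyl diphosphate, was represented by 8 genes, of which 0 were called. Its summed level was 1473, 1559 and 1540 CPM after H3CIT+dsDNA and 1540, 1597 and 1640 CPM in controls, so that the groups overlapped. Of the 8 genes, 6 had a log2FC below 0 and 3 were lower at an unadjusted p-value under 0.05. Over all genes tested the shares were 50.6% and 5.3%. Mvk, the mevalonate kinase, had 40.3, 42.9 and 43.6 CPM against 45.9, 47.1 and 46.3 CPM in controls. Every treated library was below every control, with a log2FC of -0.14 (SE 0.0513) that did not pass the adjusted threshold (edgeR adjusted p = 0.254). Mvd, whose enzyme decarboxylates mevalonate diphosphate, had 121.5, 119.8 and 116.3 CPM against 122.8, 133.1 and 133.4 CPM (log2FC -0.12, SE 0.0435, edgeR adjusted p = 0.219). The gap between the groups there was small, since control replicate 1 sat next to the treated libraries. Fdps, the farnesyl diphosphate synthase and the most counted gene of this arm, had 762, 832 and 821 CPM against 842, 858 and 861 CPM (log2FC -0.08, SE 0.0369, edgeR adjusted p = 0.331).

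Idi1 went the other way. Its product isomerizes isopentenyl diphosphate, and its levels of 34.0, 33.0 and 33.5 CPM were all above the control levels of 31.0, 31.8 and 30.7 CPM (log2FC 0.10, SE 0.0565, edgeR adjusted p = 0.449). Hmgcs1, the HMG-CoA synthase at the entry of the pathway, had 218.6, 227.7 and 222.9 CPM against 197.8, 207.6 and 226.8 CPM. Control replicate 3 fell among the treated libraries, and the log2FC was 0.08 (SE 0.0468, edgeR adjusted p = 0.478). Acat2, the cytosolic acetoacetyl-CoA thiolase, had 111.3, 112.1 and 118.1 CPM against 115.2, 120.8 and 131.5 CPM (log2FC -0.11, SE 0.0506, edgeR adjusted p = 0.381). Aacs, the acetoacetyl-CoA synthetase, had 118.8, 120.1 and 119.6 CPM, all next to control replicate 1 at 118.6 CPM and below the other controls at 125.1 and 141.1 CPM (log2FC -0.10, SE 0.0557). Pmvk, the phosphomevalonate kinase, had a log2FC of -0.07 with overlapping groups. Pseudogenes or relatives named after Acat2, Fdps, Idi1, Cyp51, Nsdhl and Scd are listed in the later rat assembly GRCr8. Reads of these genes can be shared with such copies. Whether they were shared in these counts, mapped to the earlier build Rnor6.0, was not tested.

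The sterol arm, from squalene synthase to cholesterol, held 11 genes, again with 0 called. Of these, 10 had a log2FC below 0 and 4 were lower at an unadjusted p-value under 0.05. Over all genes tested the shares were 50.6% and 5.3%. The signs of Sqle, Tm7sf2, Msmo1, Nsdhl, Hsd17b7 and Sc5d changed in at least 1 of 15 alternatives. The arm contained the 2 genes with the smallest p-values of all 36. Dhcr7, the dehydrocholesterol reductase that completes one route to cholesterol, had 88.3, 95.1 and 94.3 CPM after H3CIT+dsDNA and 103.0, 102.2 and 108.7 CPM in controls. The groups did not overlap, and the means were 92.6 ± 3.69 CPM (SD, n = 3) and 104.6 ± 3.56 CPM (SD, n = 3). Its log2FC was -0.18 (SE 0.0449, 95% confidence interval -0.27 to -0.08, edgeR adjusted p = 0.0713). Over 15 alternatives its adjusted p ranged from 0.0317 to 0.319, and it was called in 3 of them, at 0.0433 with DESeq2, 0.0447 when low genes were kept and 0.0317 when dispersions were estimated robustly. Ebp, the sterol isomerase, had 63.9, 66.1 and 65.3 CPM against 73.6, 73.1 and 69.8 CPM. These groups were also apart (log2FC -0.15, SE 0.0423, edgeR adjusted p = 0.105), and Ebp was not called in any of the 15 alternatives, where its adjusted p ranged from 0.0668 to 0.357.

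Fdft1, the squalene synthase, had 93.0, 92.0 and 90.7 CPM against 96.9, 97.8 and 102.7 CPM (log2FC -0.11, SE 0.0408, edgeR adjusted p = 0.243). Lss, which closes the lanosterol ring system, had 164.2, 162.9 and 170.1 CPM against 175.7, 177.1 and 180.1 CPM (log2FC -0.10, SE 0.0353, edgeR adjusted p = 0.217). Cyp51, the lanosterol demethylase, had 772, 783 and 800.0 CPM against 805, 811 and 821 CPM (log2FC -0.05, SE 0.0305, edgeR adjusted p = 0.510). In these 3 genes the treated libraries were all below the controls.

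Sqle, the squalene epoxidase, had mixed groups, at 190.0, 185.7 and 201.4 CPM against 189.2, 195.8 and 196.7 CPM. Its log2 fold change was -0.01, with a 95% confidence interval of -0.10 to 0.07. Msmo1 (a methylsterol oxidase), Nsdhl and Hsd17b7 (which act with it in demethylation) and Sc5d (a sterol desaturase) had log2FC of 0.01, -0.04, -0.02 and -0.01, and their groups overlapped. Tm7sf2, a sterol reductase, was nearly silent with 13, 25 and 11 counts against 19, 19 and 16, and its 95% confidence interval ran from -0.88 to 0.67. Its coefficient of variation over the treated libraries was 48.2%, where counting error is 24.7%. Over the controls it was 10.9%, where counting error is 23.6%.

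Within the control group the libraries took a similar order in most synthesis genes. Of the 19 genes of the mevalonate and sterol arms, control replicate 3 was the highest control in 13 and control replicate 1 the lowest in 13. Among the H3CIT+dsDNA libraries replicate 3 was the highest in 9 and replicate 1 the lowest in 9. Summed over the 19 genes, levels were 3558, 3659 and 3723 CPM after H3CIT+dsDNA and 3695, 3783 and 3877 CPM in controls. The ranges crossed, and the difference between the means, 3647 ± 82.9 CPM and 3785 ± 91.1 CPM (SD, n = 3 each), came to -3.66% of the control mean. The range of the 3 controls was wider than this difference. In both groups the sum rose from replicate 1 to replicate 3. Whether same-numbered libraries belong together was not tested for the 19 genes. Summed over all 36 genes, the levels of 8060, 8113 and 8187 CPM after H3CIT+dsDNA were all below the 8350, 8432 and 8551 CPM of the controls, by -3.84% of the control mean. Npc2 weighs most in this sum, with a mean of 2026 CPM after H3CIT+dsDNA and 2129 CPM in controls. Fasn, Fdps and Cyp51 come next. The groups overlapped for Npc2 and Fasn and were apart for Fdps and Cyp51.

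**Figure D3:**
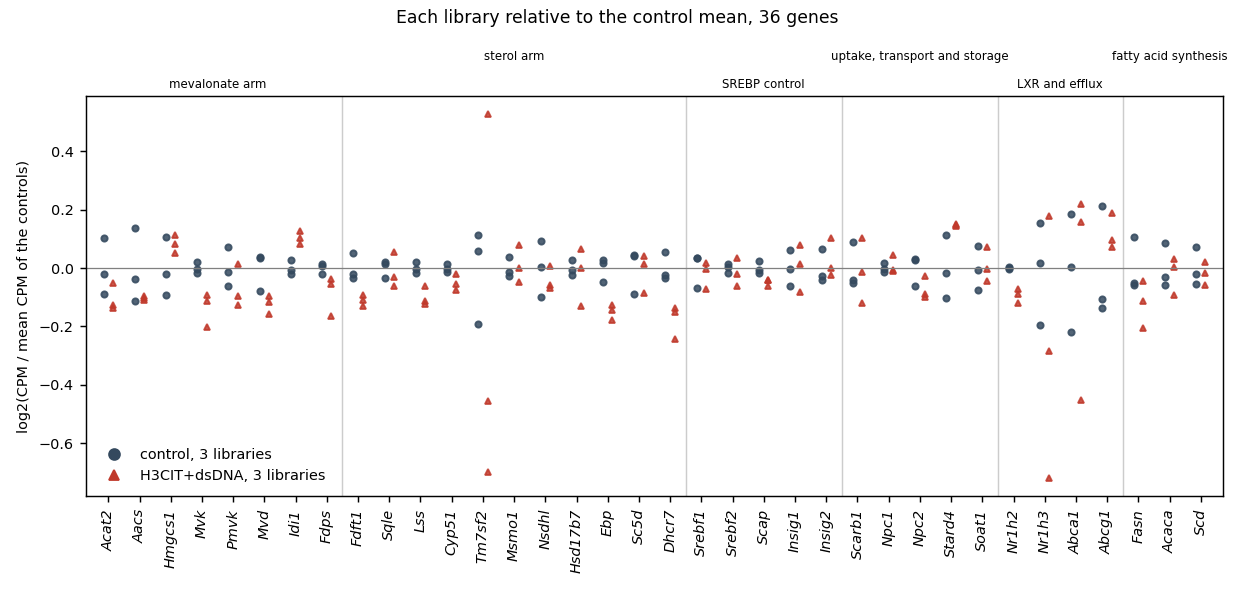
Level of each of the 36 genes in each library as log2 of its CPM over the mean CPM of the 3 controls, grouped by role; circles are controls and triangles H3CIT+dsDNA libraries. Triangles lie wholly below the circles for 10 genes (Mvk, Mvd, Fdps, Fdft1, Lss, Cyp51, Ebp, Dhcr7, Scap and Nr1h2) and wholly above for 2, Idi1 and Stard4. Tm7sf2, Nr1h3, Abca1 and Abcg1 have the widest scatter.

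The promoters were searched for motifs of factors that act on this pathway, and no motif was found in every one. RefSeq sequences (build GRCr8) were at hand for 28 of the 36 genes, and the 250 bases before the annotated start were searched on both strands for 3 motifs. TCACNCCA, a short form of the sterol response element that SREBP binds, was in the promoters of 2 of the 28 genes, Srebf2 and Msmo1, and in 3.24% of all 33469 promoters. CCAAT, the box bound by NF-Y, was in 18 of 28 (34% of all promoters), and GGGCGG, the GC box bound by Sp1, in 21 of 28 (30.5% of all promoters). The 33469 promoters outnumber the 12591 genes tested and were not limited to genes expressed in these cells, as the 28 are. The shares are therefore not a like comparison, and enrichment was not tested. The median log2 fold change was -0.0019 for the 2 genes with TCACNCCA and -0.05 for the 26 without. It was -0.02 for the 18 genes with CCAAT and -0.07 for the 10 without, and -0.05 and -0.04 for the 21 with the GC box and the 7 without. Below are the promoters of Dhcr7 and Ebp, the genes with the largest separation, and of Srebf2 and Msmo1, which hold TCACNCCA. Capitals mark the 3 motifs on either strand, adjoining or overlapping matches run together, and all 4 lie on the plus strand.
Dhcr7, chr1:208444184-208444433: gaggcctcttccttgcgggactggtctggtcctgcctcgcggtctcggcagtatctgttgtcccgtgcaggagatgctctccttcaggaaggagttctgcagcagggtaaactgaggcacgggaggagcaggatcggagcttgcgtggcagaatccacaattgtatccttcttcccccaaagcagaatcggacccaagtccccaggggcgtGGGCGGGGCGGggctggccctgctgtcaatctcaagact
Ebp, chrX:16971212-16971461: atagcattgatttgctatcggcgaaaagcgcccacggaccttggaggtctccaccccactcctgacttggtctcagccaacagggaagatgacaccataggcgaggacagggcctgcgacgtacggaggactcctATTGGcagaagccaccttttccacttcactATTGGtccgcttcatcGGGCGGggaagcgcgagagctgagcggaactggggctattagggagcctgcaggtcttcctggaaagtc
Srebf2, chr7:115543057-115543306: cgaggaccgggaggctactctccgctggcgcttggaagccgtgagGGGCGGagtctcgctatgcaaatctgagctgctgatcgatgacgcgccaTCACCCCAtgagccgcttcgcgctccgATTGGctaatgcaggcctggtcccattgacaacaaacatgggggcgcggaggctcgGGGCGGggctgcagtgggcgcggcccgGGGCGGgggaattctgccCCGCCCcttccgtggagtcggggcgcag
Msmo1, chr16:29746863-29747112: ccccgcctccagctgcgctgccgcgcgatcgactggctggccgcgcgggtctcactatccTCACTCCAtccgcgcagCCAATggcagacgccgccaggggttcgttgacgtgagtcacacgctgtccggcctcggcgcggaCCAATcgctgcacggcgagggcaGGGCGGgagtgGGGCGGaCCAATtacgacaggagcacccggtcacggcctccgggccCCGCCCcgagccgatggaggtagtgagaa
Dhcr7 held 2 overlapping GC boxes, 39 and 34 bases before the start, and neither of the other motifs in this window. Ebp held CCAAT 115 and 85 bases before the start, read on the opposite strand, and a GC box at 69. In Srebf2 the TCACNCCA match began 156 bases before the start and CCAAT 129 bases before it. In Msmo1 it began at 190, ahead of CCAAT at 173, 109 and 68. A match of letters is a description only, and a missing match says nothing of binding.

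The 5 regulators of the pathway differed little, and 0 were called. Srebf2, the SREBP factor of sterol synthesis, had 269.5, 252.1 and 259.7 CPM after H3CIT+dsDNA and 263.8, 265.8 and 260.1 CPM in controls. Its log2FC of -0.02 had a 95% confidence interval of -0.09 to 0.06 (edgeR adjusted p = 0.888). Srebf1, the form tied more to fatty acid synthesis, had a log2FC of -0.02 (95% confidence interval -0.12 to 0.08). Insig1, itself a sensitive SREBP target, had 274.0, 262.1 and 245.2 CPM against 258.9, 248.9 and 270.9 CPM, fully mixed between the groups, and a log2FC of 0.0047 (95% confidence interval -0.09 to 0.10). Insig2, the second INSIG gene, had 26.7, 24.9 and 24.4 CPM against 26.0, 24.1 and 24.4 CPM, a log2FC of 0.03. Scap had 127.0, 125.4 and 127.0 CPM against 130.2, 132.8 and 129.2 CPM. Its groups were apart but the difference was small (log2FC -0.05, SE 0.0363, edgeR adjusted p = 0.596).

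Among the genes of uptake, transport and storage, 0 of 5 were called. Npc2, which hands cholesterol to NPC1 in the lysosome, was the most counted of the 36 genes, at 2003, 2088 and 1988 CPM against 2172, 2174 and 2041 CPM. Control replicate 3 overlapped the treated libraries (log2FC -0.07, SE 0.0343, edgeR adjusted p = 0.385). Npc1 had a log2FC of 0.01, with a 95% confidence interval of -0.06 to 0.08. Stard4, a cytosolic sterol carrier, had 17.9 CPM in each of the 3 treated libraries and 15.97, 15.03 and 17.46 CPM in controls. This was the largest positive difference of the 36 genes (log2FC 0.15, SE 0.0771, edgeR adjusted p = 0.427), with control replicate 3 close to the treated level. The treated libraries were closer to each other here than in any other of the 36 genes. Scarb1, the scavenger receptor for high-density lipoprotein, and Soat1, which esterifies cholesterol for storage, had log2FC of -0.0074 and 0.0084, and their groups overlapped.

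The efflux genes were low in these cells. Abca1 had 113, 72 and 118 counts after H3CIT+dsDNA and 100, 89 and 118 in controls, or 5.61 ± 1.32 CPM and 5.59 ± 0.781 CPM (SD, n = 3 each). The log2FC was 0.0065 with a 95% confidence interval of -0.40 to 0.41. The coefficient of variation of Abca1 was 23.6% over the treated libraries and 14.0% over the controls, where its counts alone give 9.95% and 9.88%. Abcg1 had 164, 147 and 154 counts against 129, 137 and 171 (log2FC 0.12, 95% confidence interval -0.15 to 0.39, edgeR adjusted p = 0.722). Nr1h3, which encodes LXRα, had 95, 67 and 51 counts against 92, 87 and 75, and the widest interval of the group, -0.70 to 0.24. Its paralog Nr1h2, which encodes LXRβ, was far more counted, at 106.7, 110.1 and 109.0 CPM against 115.6, 116.1 and 115.7 CPM. Here the groups were apart (log2FC -0.09, SE 0.0375, edgeR adjusted p = 0.285), and Nr1h2 makes up most of the summed level of the LXR and efflux group, 127.2, 126.3 and 126.7 CPM against 133.6, 132.9 and 135.3 CPM.

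The 3 fatty acid genes were not called. Fasn, the fatty acid synthase, had 808, 757 and 847 CPM against 839, 842 and 940 CPM. H3CIT+dsDNA replicate 3 lay above 2 of the 3 controls, and the log2FC was -0.12 (SE 0.0499, edgeR adjusted p = 0.305). Acaca, the acetyl-CoA carboxylase, and Scd, a stearoyl-CoA desaturase with close relatives in the rat genome, each had a log2FC of -0.02 with the groups mixed, Acaca at 137.4, 126.4 and 134.9 CPM against 131.7, 129.2 and 142.9 CPM and Scd at 183.6, 178.4 and 188.4 CPM against 178.9, 183.4 and 195.4 CPM.

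**Figure D4:**
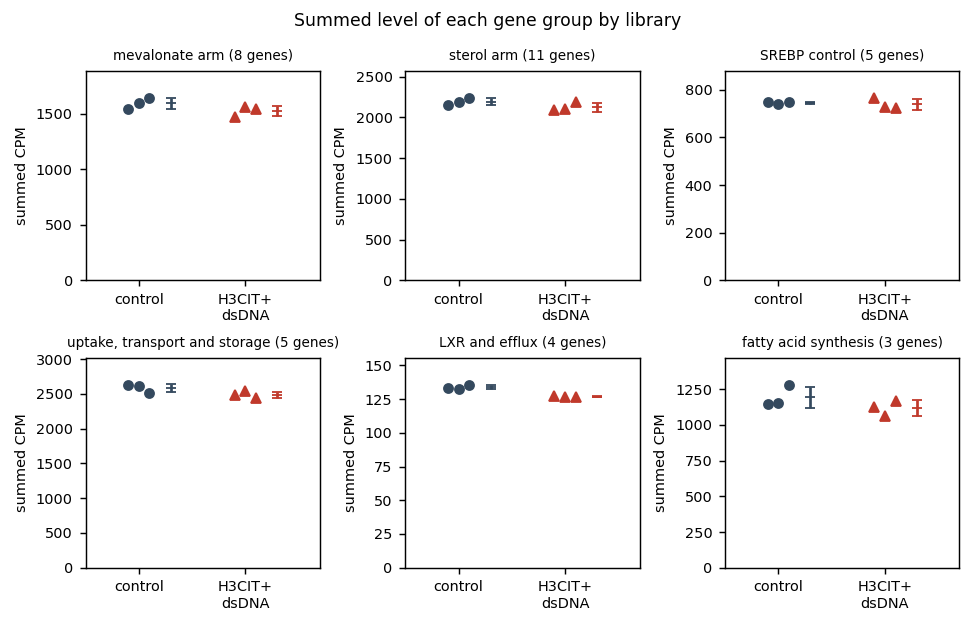
Summed CPM of each of the 6 gene groups in each library, with the mean and SD (n = 3) beside the points; axes start at 0. Controls and H3CIT+dsDNA libraries differ by 0.892% to 6.16% of the control mean, and the SREBP control group has the smallest difference.

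Further lists held 52 genes of sterol sensing, lipoprotein receptors, sterol transport, LXR partners and acetyl-CoA and fatty acid supply. Of these, 44 were tested and 0 were called by edgeR, DESeq2 or limma-voom. At an unadjusted p-value under 0.05, 3 were higher and 1 lower, against 8.64% and 5.3% of all genes tested. The median log2 fold change of the 44 was 0.0003. The interval lay inside ±0.3 for 36 of them, and for 7418 of all 12591 genes tested. Ncoa1, a coactivator of nuclear receptors, had 55.3, 51.0 and 52.8 CPM against 42.9, 42.1 and 49.6 CPM (log2FC 0.24, SE 0.0645, edgeR adjusted p = 0.0864). Its groups were apart, and over 15 alternatives its adjusted p ranged from 0.00615 to 0.342. It was called in 3 of them, at 0.0480 when low genes were kept and 0.0305 with dispersions estimated robustly. The remaining call, at 0.00615, came without control replicate 3, the highest control. Ncor1, a corepressor, had a log2FC of 0.13 (edgeR adjusted p = 0.222) and Mbtps2, a protease that releases SREBP from the membrane, one of 0.24 (edgeR adjusted p = 0.343). Fads2, a fatty acid desaturase with about 1 CPM or less in every treated library, had the largest log2FC of these lists, -0.59 (SE 0.297, edgeR adjusted p = 0.408). Acss2, which makes acetyl-CoA from acetate, had 150.8, 146.1 and 145.1 CPM against 158.3, 156.0 and 162.3 CPM (log2FC -0.11, edgeR adjusted p = 0.194). The lipoprotein receptors Vldlr and Lrp1 had log2FC of 0.03 and 0.0081. Cd36, a scavenger receptor of foam cells, had 1, 1 and 2 counts against 5, 1 and 5, and like Lpl, Ch25h and Elovl6 was too low to test.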

How the data were processed

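Per the study's methods, the authors made stranded mRNA libraries, mapped reads to the rat build Rnor6.0 with TopHat and counted them per gene with HTSeq. The submitters' processing notes name TopHat2 2.1.1, Cufflinks 2.2.1 and Cuffdiff. The deposited values are whole-number counts, not normalized, for 22574 symbols; the strand setting of the counting is not given in the sources used here. The labels gave the groups, the methods the doses.

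Low genes were removed by filterByExpr. TMM factors were then applied and the 2 groups compared in R 4.3.3 with edgeR 4.0.16 (quasi-likelihood, two-sided), with Benjamini-Hochberg adjustment over 12591 genes. A standard error is the unshrunken coefficient over the square root of F, and intervals use that fit's t quantile. No test was made over the 36 genes together. Alternatives were 3 other scalings, DESeq2 1.42.0 (the tool of the methods), limma-voom 3.58.1, 2 other filters, robust dispersions, the replicate number as a block and leaving out single libraries.

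The genes, lists and motifs were chosen with earlier results of these data known. All 36 genes are accounted for, and genes of the further lists were to be named where called or among the 3 largest changes of a list; Vldlr, Lrp1 and the untested genes were named for their role after their values were seen. The lists do not hold every gene of the pathway; others are not reported here. Replicate libraries differed by more than counting noise, with a chi-square per gene of at least 3.38. All symbols of the 36 have an entry in GRCr8, whose coordinates were used for promoter sequences only. Intervals cover the spread between these libraries.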

Additional observations from a re-analysis of the deposited data

How the results depend on the processing

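Of 540 values of the 36 genes under alternatives, 537 kept their side of the threshold, 3 moved past it and 0 were called with a changed sign. The 3 were Dhcr7 with DESeq2, with no filter and with robust dispersion estimates, so that 1 of the 36 genes was called lower under each, and 0 under the other alternatives; the cause was not tested. Among the further genes, 1 (Ncoa1) was called with no filter and with robust dispersion estimates, and 0 to 1 with each library left out. The sign stayed the same in all 15 alternatives for 20 genes and changed in at least 1 for 16, all uncalled. With library size alone, 5 genes were lower and 1 higher at an unadjusted p-value under 0.05, in place of 9 and 0, while the lower share over all genes went from 5.3% to 2.95%; with each library left out it was 5 to 11 lower, the lowest without control replicate 2, and 0 to 2 higher, the highest without control replicate 3, and 3.43% to 6.26% of all genes were lower. The median log2 fold change of the 36 genes ran from -0.05 to -0.01 over the alternatives. Over all genes, 277 were called, 212 to 376 with all libraries and 164 to 357 with one left out, the lowest counts being 164 without H3CIT+dsDNA replicate 1, then 184 when control replicate 1 was dropped. Lower calls over all genes numbered 33, but 58 with no filter, 51 with DESeq2, 50 with robust dispersions and 57 without control replicate 3. They fell to 17 when H3CIT+dsDNA replicate 1 was dropped and to 22 when replicate 3 of that group was. With the replicate block 212 genes were called, 200 of the 277, and none of the 36. Over all genes tested, correlations of deviations between same-numbered libraries were -0.0458, 0.00452 and 0.0355. Such values over the whole table cannot decide whether the numbers pair the libraries for the 36 genes, and this was not tested. The low genes Tm7sf2, Nr1h3 and Abca1 varied between treated libraries by more than counting error (48.2%, 30.9% and 23.6% against 24.7%, 11.9% and 9.95%). This was not limited to low genes. The abundant genes Fasn, Fdps and Npc2 also exceeded it in the treated libraries (5.65%, 4.68% and 2.66% against 0.832%, 0.831% and 0.524%), while some other genes lay below it.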

Other observations

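Some groups of libraries agreed more closely than counting error. Stard4, Nr1h2 and Aacs are given because they had the smallest coefficients of variation of the 36 genes. Other genes were also below counting error, among them Idi1 and Scap in both groups. How often this occurs over all genes tested was not counted. Stard4 had a coefficient of variation of 0.137% over the 3 H3CIT+dsDNA libraries, where its mean count gives a counting error of 5.58%, and 7.56% over the controls. Nr1h2 had 0.207% over the controls, where counting error is 2.17%, and 1.58% after H3CIT+dsDNA. Aacs had 0.538% after H3CIT+dsDNA and 9.03% in controls, with counting errors of 2.16% and 2.06%. With 3 libraries a coefficient of variation is itself uncertain, and no test was made. Over the 36 genes the median coefficient of variation was 3.67% after H3CIT+dsDNA and 4.17% in controls. Counts that follow one another directly (such as n, n + 1 and n + 2) in the 3 libraries of a group occurred in 0 of the 36 genes, and in 60 genes after H3CIT+dsDNA and 73 genes in controls among the 12591 tested.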
